A study of Taxus mairei and Taxus cuspidata and Taxus x media with 9 samples.

Results

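Twigs of *T. cuspidata*, the Japanese yew, were compared with those of *T. media* and *T. mairei* jointly, unigene by unigene. The members are the unigenes of the co-assembly that are at least 500 bp long and carry a gene name, which holds for 9619 of 33895 unigenes. Of these, 9569 reached at least 1 TPM in at least 3 libraries and were tested. *T. cuspidata*, *T. media* and *T. mairei* were each sequenced in 3 libraries from poly(A) RNA. All 3 groups were cultivated 3-year-old trees, with no treatment named in the labels, kept at 25 °C under 12 h of light and 12 h of dark. The tissue was fresh twig. *T. media* is a garden hybrid that has *T. cuspidata* as a parent. Several trees were grown per species, but the sources do not say which trees went into which library, so the tests measure the spread between these libraries only.

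Yews make taxol (paclitaxel), a diterpenoid that starts from geranylgeranyl diphosphate. Taxadiene synthase closes the ring system, and cytochrome P450 hydroxylases and acyltransferases then decorate it. A twig also holds green needles, which express nuclear genes of the photosystems and of carbon fixation, and wood, whose forming cells express cellulose synthases of the secondary wall. The level of a gene in a twig library depends on the amounts of these tissues as well as on the RNA in each cell, and fewer needle cells cannot be told apart from less RNA per needle cell in these libraries.

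The 8 libraries with read counts held 32783233 to 44821305 counted reads. TPM was above 0 for 84.1 to 85.5% of all unigenes in the *T. cuspidata* libraries and for 89.3 to 90.9% in the others. On log2(TPM + 1), Pearson's r across all unigenes was 0.874 to 0.939 between *T. cuspidata* libraries, with the lowest values for replicate 1. It was 0.635 to 0.709 between *T. cuspidata* and *T. media* and 0.231 to 0.286 between *T. cuspidata* and *T. mairei*. Unigenes are not independent replicates, so these values describe the libraries and carry no test.

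Every *T. cuspidata* library lay above all 6 other libraries in 2130 members and below all 6 in 1195. Across all 33039 unigenes tested, with or without a name, this held for 16.8% and 11.1%. A unigene was called when, in addition, limma on log2(TPM + 1) gave an adjusted p below 0.05 and the *T. cuspidata* mean differed by more than 1 log2 unit from the average of the means of both other yews. By this rule, 1356 members were higher in *T. cuspidata* (14.2% of the members tested) and 794 were lower (8.30%). The same rule called 12.4% of all unigenes tested higher and 8.86% lower, so named, longer unigenes were called at about the rate of the whole assembly. Just under the length limit, from 450 to 499 bp, 10.5% of 421 named unigenes were called higher and 12.8% lower. From 500 to 549 bp the values were 9.73% and 12.7% of 370.

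Higher calls outnumbered lower calls on TPM, but this balance depended on the scaling. Higher calls made up 63.1% of the calls on TPM as deposited, 50.8% after the TPM were divided by TMM factors (1050 higher, 1018 lower) and 53.3% with edgeR on counts (1130 higher, 990 lower). The TMM factors moved the median log2 difference of all unigenes by -0.22. The factors were 1.11 to 1.16 in *T. cuspidata*, 1.16 to 1.25 in *T. media* and 0.71 to 0.75 in *T. mairei*. The summed TPM of lists given below were not divided by these factors. Division would raise *T. mairei* against both other yews, so ratios and narrow separations between these sums depend on the scaling as well.

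Higher and lower members differed in shape. Among the higher members, the median of the mean TPM was 46.9 in *T. cuspidata*, 21.1 in *T. media* and 8.82 in *T. mairei*. Every *T. media* library lay above every *T. mairei* library in 1115 of them, and the reverse held in 59. Only 27 of them (1.99%) were below 1 TPM in all 6 libraries of the other yews. Among the lower members, the median was 2.07 TPM in *T. cuspidata*, 13.5 in *T. media* and 33.4 in *T. mairei*, and 441 had every *T. mairei* library above every *T. media* library. All 3 *T. cuspidata* libraries were below 1 TPM in 257 of the lower members (32.4%) and were listed at 0 in 79. In 59 lower members the *T. cuspidata* libraries were below 1 TPM while all 6 others were above 20 TPM. The mirror image occurred in 3 higher members. The low side is 3 libraries of 1 species for the lower members and 6 libraries of 2 species for the higher ones, so these counts are not on equal terms.

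Against each of the other yews separately, with an adjusted p below 0.05 and more than 1 log2 unit in both comparisons, 585 members were higher and 507 lower. The rates among all unigenes tested were 7.06% and 6.25%. The 2 comparisons share the *T. cuspidata* libraries. Of the calls against the average of both, 43.1% of the higher and 63.9% of the lower ones held in both comparisons.

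The higher members with the widest gap between *T. cuspidata* and all other libraries came from several families. The gap is the log2 ratio of the lowest TPM on the high side to the highest on the low side, each with 1 added. The widest was that of OMT2 (comp13552_c1), annotated as a flavonol 3-O-methyltransferase, which adds a methyl group to flavonols. It stood at 53.92, 50.9 and 48.95 TPM in *T. cuspidata*, at 0, 0.04 and 0.49 TPM in *T. media* and was listed at 0 in all 3 *T. mairei* libraries (log2 difference 5.60 ± 0.15 SE, adjusted p = 5.4e-08). The unigene was therefore almost restricted to the *T. cuspidata* libraries. A pair of ethylene response factors followed the same course. ERF024 (comp10165_c0) was at 49.49, 51.19 and 72.55 TPM in *T. cuspidata* and at most 0.87 TPM elsewhere, with a log2 difference of 5.31 ± 0.17. ERF094 (comp35735_c0) was at 131.05, 99.65 and 101.91 TPM, against 5.0 to 7.96 TPM in *T. media* and 1.55 to 3.06 TPM in *T. mairei*.

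At1g77330 (comp23566_c0), annotated as an aminocyclopropanecarboxylate oxidase, the enzyme that releases ethylene, showed the largest log2 difference of the 15 higher unigenes with the widest gaps. It was at 259.88, 320.73 and 281.65 TPM in *T. cuspidata*, 7.59, 18.82 and 30.47 TPM in *T. media* and 0, 0.15 and 0.1 TPM in *T. mairei* (6.05 ± 0.36, adjusted p = 3e-06). The species were ordered with no overlap, and *T. mairei* was close to 0. The most abundant of the 15 was STH-21 (comp21796_c0), a pathogenesis-related protein named from potato. It reached 5036.33, 2480.6 and 2293.42 TPM in *T. cuspidata*, where replicate 1 was the highest, against 76.23 to 264.72 TPM in *T. media* and 159.07 to 206.01 TPM in *T. mairei*. GAD1 (comp25784_c0), a glutamate decarboxylase that makes gamma-aminobutyrate, was at 255.63, 189.54 and 187.3 TPM in *T. cuspidata* and at most 21.34 TPM in the other 6 libraries. PER42 (comp26037_c0), a peroxidase, was at 766.34, 1109.02 and 1025.5 TPM and between 32.26 and 110.46 TPM elsewhere.

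The remaining unigenes of the 15 were less abundant or lacked a clear role. SWEET1B (comp18561_c0), a sugar transporter, was at 31.46 to 45.46 TPM in *T. cuspidata*, 1.75 to 3.12 TPM in *T. media* and 0.22 to 0.37 TPM in *T. mairei*. CYP78A4 (comp10682_c0), a cytochrome P450, was at 33.33 to 34.88 TPM in *T. cuspidata* and 1.2 to 2.73 TPM elsewhere. ABCG20 (comp2727_c0), an ABC transporter, was at 10.21, 25.14 and 23.07 TPM against at most 0.09 TPM. Receptor-like and resistance-type genes were also among them: At2g19130 (comp29446_c0), a lectin receptor kinase in Arabidopsis, at 36.68 to 60.37 TPM against at most 0.41 TPM, and At5g47250 (comp14217_c0), a disease resistance gene in Arabidopsis, at 7.42 to 18.98 TPM against at most 0.2 TPM. The other 3 were dfa6 (comp23757_c0), TBP2 (comp410_c0), annotated as a proteasome subunit, and comp26477_c0. The last carries the name of the flagellin receptor FLS2 but is annotated as MOB1, so its identity is uncertain. All 15 were called under every unigene-level setting that kept them in the table, and a mean of at least 5 TPM removed TBP2 and At5g47250.

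**Figure D1:**
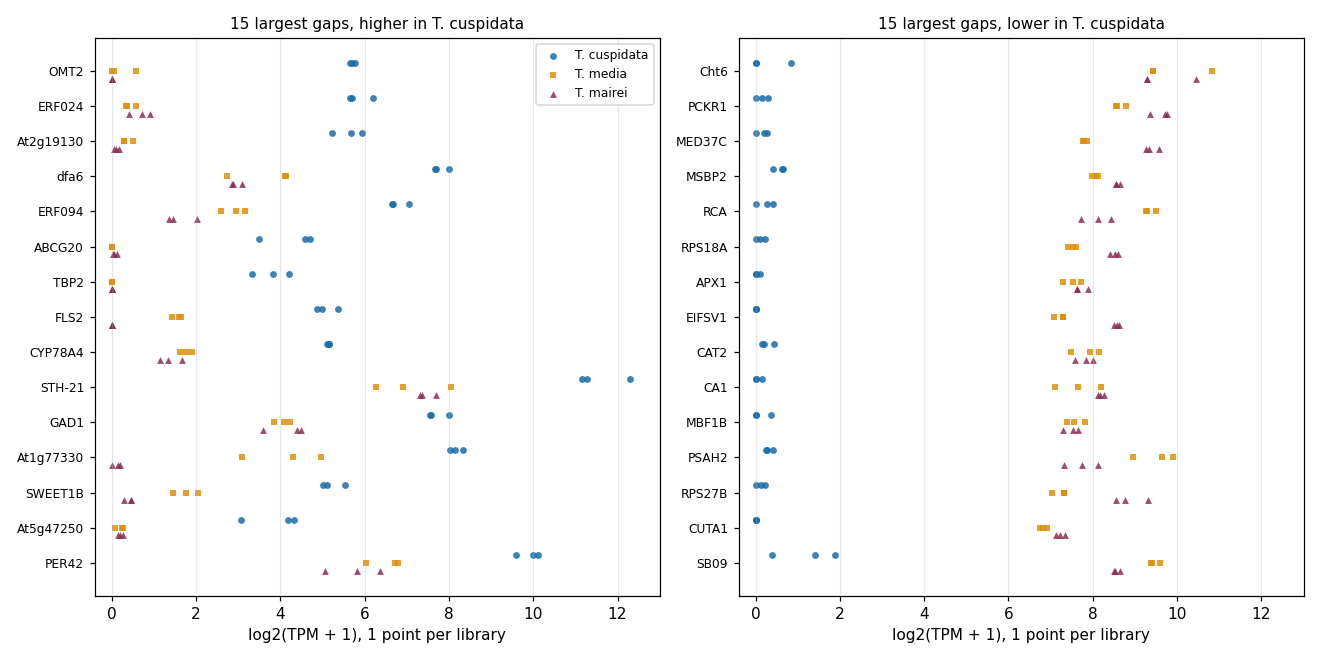
TPM of the 15 higher and 15 lower named unigenes with the widest gap, on a log2(TPM + 1) axis with 1 point per library and 3 libraries per species. On the left the *T. cuspidata* points lie to the right of all others at graded levels. On the right all *T. cuspidata* points lie below 2 log2 units, and the other yews lie above 6.

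The 15 lower members with the widest gap mostly carry names of abundant proteins. Cht6 (comp20983_c1), a chitinase, was listed at 0, 0 and 0.78 TPM in *T. cuspidata*, at 1815.66, 684.23 and 688.5 TPM in *T. media* and at 621.28, 1406.04 and 627.95 TPM in *T. mairei* (log2 difference -9.51 ± 0.42 SE, adjusted p = 5.6e-07). RCA (comp15181_c0), Rubisco activase, which keeps the carbon-fixing enzyme active, was at 0, 0.33 and 0.2 TPM against 609.69 to 721.7 TPM in *T. media* and 211.14 to 342.44 TPM in *T. mairei*. PSAH2 (comp15684_c1), a photosystem I subunit, was at 0.33, 0.2 and 0.19 TPM against 493.66 to 950.67 TPM and 157.81 to 279.51 TPM. In each of the 3 cases the *T. cuspidata* libraries were near 0 and every library of the other yews was at 157.81 TPM or more.

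The others of this group were MED37C (comp20520_c0), of the HSP70 chaperone family, MSBP2 (comp24268_c1), a steroid-binding membrane protein, the peptidylprolyl isomerase PCKR1 (comp3153_c0), the ribosomal proteins RPS18A (comp10368_c0) and RPS27B (comp19616_c0), the translation factor EIFSV1 (comp19463_c0), the peroxide-removing enzymes APX1 (comp22250_c0) and CAT2 (comp2151_c0), the carbonic anhydrase CA1 (comp37670_c0), the coactivator MBF1B (comp1840_c0), CUTA1 (comp21746_c1) and the thioredoxin SB09 (comp10186_c0). Of these, SB09 had the highest *T. cuspidata* values (2.72, 0.3 and 1.64 TPM, against 363.25 to 773.49 TPM in the other yews). EIFSV1 and CUTA1 were listed at 0 in all 3 *T. cuspidata* libraries. All 15 lower members were called under every unigene-level setting that kept them in the table.

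Several of these genes have more than 1 unigene in the assembly, and the level of the gene was then read from the sum. TPM were summed over all unigenes with the same KEGG ortholog, of any length, and fitted in the same way, which gave 2094 sums. Of these, 14.0% were called higher in *T. cuspidata* and 3.92% lower. Of 808 higher members whose ortholog was tested, the sum was called higher for 326 (40.3%) and lower for 9. Of 452 lower members, the sum was called lower for 79 (17.5%) and higher for 23 (5.09%). Where the ortholog had several unigenes, the median log2 difference went from 1.66 for the higher unigene to 0.66 for the sum, and from -2.17 for the lower unigene to -0.5 for the sum. An ortholog can hold several genes of a family, so a sum that was not called does not show that each gene was alike. Of the 15 lower unigenes above, 13 had an ortholog sum, which was lower for Cht6 alone (28 unigenes, log2 difference -1.84) and higher for RPS27B (1.20) and SB09 (1.43). Summed by gene name, Cht6 (-6.54 over 8 unigenes) and RCA (-5.30 over 5 unigenes) were lower, and PCKR1 (1.37) and RPS27B (1.21) were higher. Of the 15 higher unigenes, 9 had an ortholog sum, which was called higher for 1 and not called for the others. For GAD1 the ortholog sum had means of 312.6 TPM in *T. cuspidata* and 323.5 TPM in *T. mairei*. For At1g77330 these means were 2137.2 and 3107.0 TPM, so other unigenes of both orthologs were abundant in *T. mairei*. The sum over the gene name was called higher for 11 of the 15 and not called for the others.

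For 139 gene names, 1 unigene was called higher in *T. cuspidata* and another of the same name was called lower. RPS18A, a protein of the small ribosomal subunit, was such a case. Its unigene comp22785_c0 was at 441.2, 434.26 and 482.06 TPM in *T. cuspidata*, 133.27, 123.98 and 116.47 TPM in *T. media* and 9.81, 11.28 and 11.59 TPM in *T. mairei*. Its unigene comp10368_c0 was at 0.08, 0.17 and 0 TPM, 184.75, 194.06 and 170.55 TPM and 365.63, 387.43 and 336.78 TPM. *T. cuspidata* thus expressed the first, *T. mairei* mostly the second, and *T. media* both. Summed over the 4 unigenes of the name, the log2 difference was 0.44 and was not called.

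MED37C, of the HSP70 family, showed the same arrangement, with means of 609.7 (*T. cuspidata*), 95.2 (*T. media*) and 12.1 TPM (*T. mairei*) for comp24665_c0 and of 0.117, 224.0 and 672.2 TPM for comp20520_c0. GSTF13, a glutathione S-transferase, had means of 286.3, 55.4 and 24.9 TPM for comp22226_c0 and of 6.62, 109.1 and 242.8 TPM for comp26658_c0. SODCP, the chloroplast superoxide dismutase, had means of 1218.8, 307.8 and 42.5 TPM for comp20792_c0 and of 0.0233, 93.6 and 154.2 TPM for comp16793_c0. The orders of the species were opposite within each of the 3 pairs, with *T. media* between the others. For SODCP the sum over its 3 unigenes was still higher in *T. cuspidata* (2.11, adjusted p = 1.7e-06), while for MED37C (-0.44) and GSTF13 (0.25) it was not called.

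Over the 139 names, the unigene with the widest gap in each direction was taken. The median log2 difference was 2.17 for the higher unigene, -4.11 for the lower one and 0.24 for the sum over the name. The *T. media* mean lay between the *T. cuspidata* and the *T. mairei* mean in both unigenes of 91 names, and *T. media* reached a mean of 1 TPM in both unigenes of 129. The sum over the name was called higher for 24, lower for 7 and not called for 108. The names were chosen for their opposite calls, so these counts describe the pairs and test nothing.

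**Figure D2:**
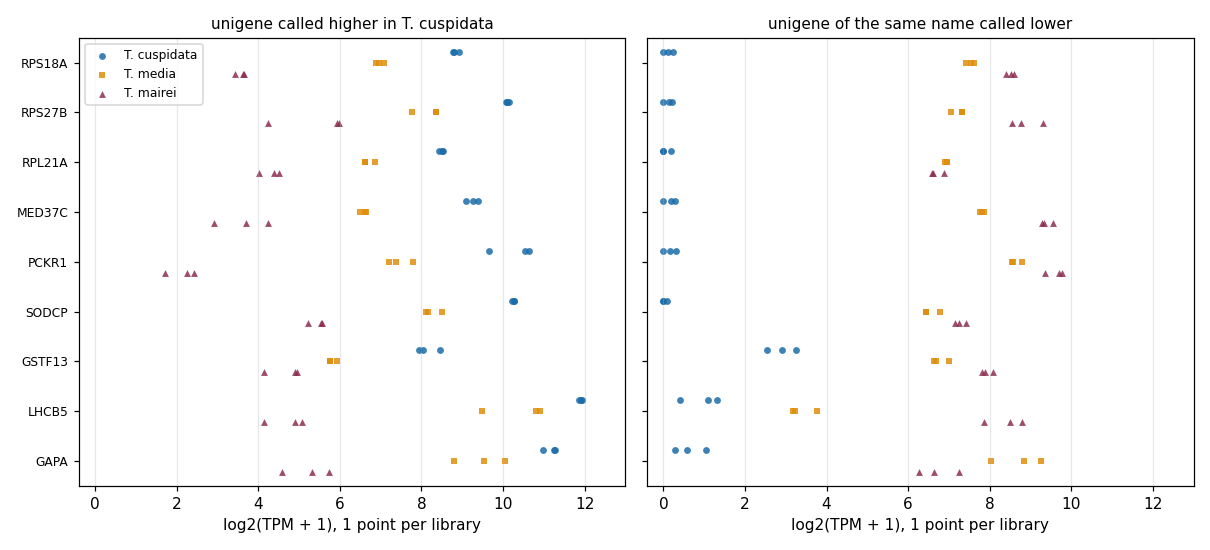
TPM of 9 gene names that have a unigene called higher (left) and another called lower (right) in *T. cuspidata*, on a log2(TPM + 1) axis with 1 point per library. On the right *T. cuspidata* lies below 4 log2 units in all 9, while *T. media* has both unigenes of each name.

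Genes of the photosystems and light-harvesting antenna were higher in *T. cuspidata* more often than members at large. Of 74 members of the KEGG pathways for photosynthesis and antenna proteins, 62 were tested. Of these, 42 were higher and 5 lower, with a median log2 difference of 2.35, against 14.2% higher, 8.30% lower and a median of 0.22 over all members tested. Called against each species, 29 were higher and 5 lower. Their summed TPM was 60108, 73260 and 71127 in *T. cuspidata*, 21110, 42917 and 36610 in *T. media*, and in *T. mairei* it was 4459, 3237 and 5543. The *T. cuspidata* libraries lay above all others, 2.03 times the *T. media* mean and 15.45 times the *T. mairei* mean, and *T. media* lay above *T. mairei*. Summed by ortholog, 25 of 43 orthologs of the list were called higher, petC (2.26) and LHCB5 (2.46) among them. The ortholog sums of PSAH2 (1.82) and PSAEB (1.81) were above 0 on the log2 scale but were not called.

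PSBS (comp21791_c0), the photosystem II protein that dissipates excess light, was at 1126.16, 1575.14 and 1600.81 TPM in *T. cuspidata*, 194.52, 493.13 and 232.27 TPM in *T. media* and 27.63, 20.84 and 39.24 TPM in *T. mairei* (log2 difference 3.96 ± 0.33 SE, adjusted p = 2.1e-05). FD2 (comp24867_c1), a ferredoxin that passes electrons on from photosystem I, was at 2669.83, 2425.1 and 2735.14 TPM, 290.55 to 627.47 TPM and 62.41 to 124.29 TPM (3.76 ± 0.28). CAB36 (comp20943_c0), a chlorophyll-binding antenna protein, was at 2810.8 to 3773.6 TPM, 585.48 to 1260.02 TPM and 45.16 to 68.0 TPM (3.81 ± 0.27). The species came in the same order, with no overlap, in these 3 unigenes. CABE (comp22112_c0), a second antenna protein, was weaker at 45.64 to 50.42 TPM but had the widest gap of the list, with 2.74 to 7.06 TPM in *T. media* and less than 0.9 TPM in *T. mairei*.

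The lower unigenes of the list were PSAH2, above, PSAEB (comp10220_c0), which was listed at 0 in *T. cuspidata* and at 79.56 to 317.99 TPM in the other yews, petC (comp20884_c0), LHCB5 comp14838_c0 and PSBP (comp10745_c0). PSBP, a protein of the oxygen-evolving complex that was picked after its values were seen, was at 94.16 TPM in replicate 1 of *T. cuspidata* and at 0.42 and 0.15 TPM in the others, against 97.39 to 344.49 TPM in the other yews, so that 1 library stood just below the lowest *T. mairei* value. LHCB5 is an antenna protein of photosystem II. Its unigene comp14838_c0 was at 0.33, 1.13 and 1.49 TPM in *T. cuspidata*, 8.06 to 12.56 TPM in *T. media* and 230.06 to 445.97 TPM in *T. mairei*. Its unigene comp17420_c0 was at 3882.76, 3905.09 and 3711.73 TPM, 711.25 to 1904.4 TPM and 16.45 to 32.81 TPM. The sum over the 3 unigenes of LHCB5 was higher in *T. cuspidata* (2.46, adjusted p = 0.00025), and for petC (2.26) the sum was higher as well.

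Carbon fixation followed in part. Of 39 members tested, 11 were higher and 3 lower (28.2% and 7.7%, median 0.51), and 6 of 15 ortholog sums were higher. Over all members tested the shares were 14.2% and 8.3%. FBA2 (comp27214_c1), an aldolase, was at 3837.07, 4562.01 and 4340.93 TPM in *T. cuspidata*, 1165.24 to 2092.88 TPM in *T. media* and 50.71 to 113.65 TPM in *T. mairei*. FBPban1 (comp24201_c0), a fructose-1,6-bisphosphatase, was at 234.59 to 329.8 TPM, 59.12 to 100.29 TPM and 13.68 to 17.6 TPM. The summed TPM of the list, 21291 to 24750 in *T. cuspidata*, overlapped with *T. media* (14452 to 21565) and lay far above *T. mairei* (1900 to 2818). GAPA, which reduces the first product of carbon fixation, again had a higher (comp15717_c0) and a lower unigene (comp64547_c0), and the sum over the 5 unigenes of the name was higher (2.05).

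The tissue markers were read beside these groups. Of the needle markers (RBCS, LHC, CAB, PSA and PSB names), 28 of 39 tested were higher and 4 lower. These are 71.8% and 10.3%, against 14.2% and 8.3% of all members tested. The summed TPM of the needle markers was 60680 to 73653 in *T. cuspidata*, 27554 to 50284 in *T. media* and 3350 to 6140 in *T. mairei*. These markers overlap with the photosystem list. The 5 wood markers summed to 43.6 to 52.0 TPM in *T. cuspidata*, 37.1 to 38.7 TPM in *T. media* and 52.1 to 60.6 TPM in *T. mairei*. Of these, CESA7 (comp118391_c0), a cellulose synthase of the secondary wall, was higher, at 4.27, 9.97 and 9.68 TPM against at most 1.19 TPM elsewhere. Markers of dividing tissue (cyclins and histones) summed to 2171 to 2475 TPM in *T. cuspidata*, 2209 to 2583 TPM in *T. media* and 1484 to 1545 TPM in *T. mairei*, and 1 of 10 was higher. The share of needle in each twig sample is not given in the sources used here, and its part in the results was not tested.

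**Figure D3:**
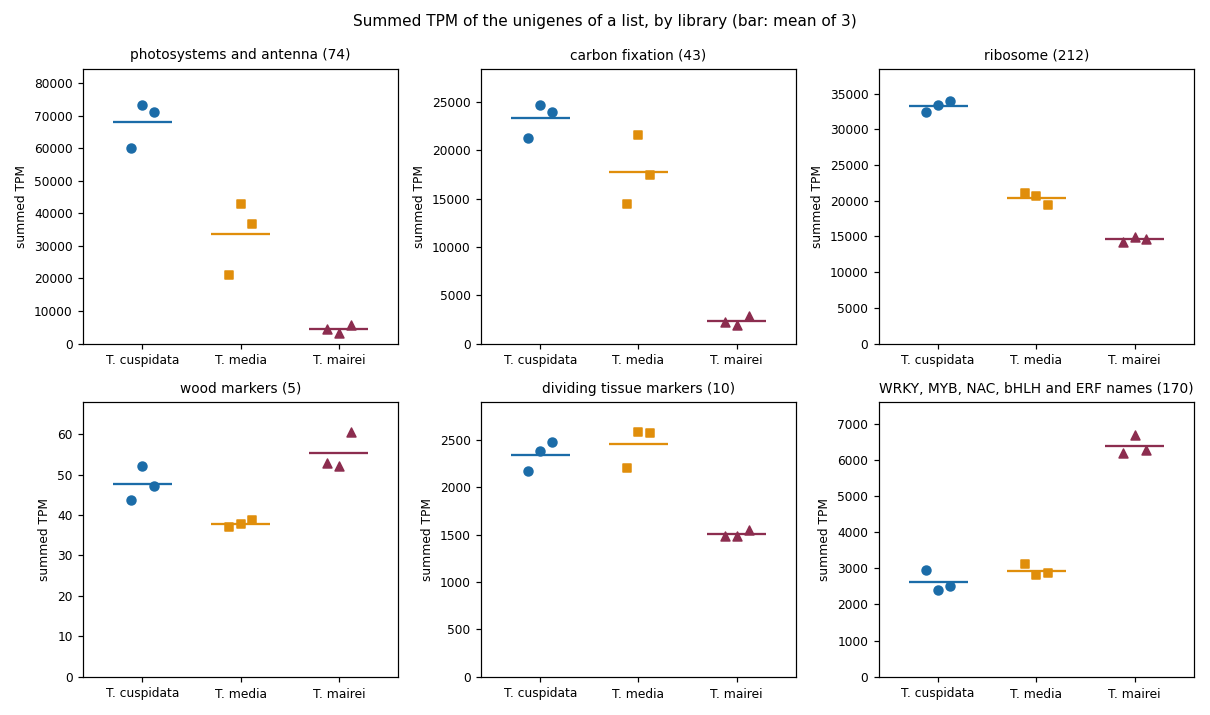
Summed TPM, as deposited and without TMM factors, of the members of 6 lists in each of the 9 libraries. The mean of 3 libraries is a horizontal line and the axis starts at 0. The photosystem and ribosome sums of the 3 *T. cuspidata* libraries lie above all others, those of carbon fixation overlap with *T. media*, those of wood markers lie between both other yews, and the transcription factor sum is highest in *T. mairei*.

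Ribosomal proteins were also higher more often than members at large. Of 211 members tested, 106 were higher and 20 lower (median log2 difference 1.15), and 35 of 111 ortholog sums were higher. The calls are 50.2% and 9.5% of the list, against 14.2% and 8.3% of all members tested. The summed TPM was 32344 to 34004 in *T. cuspidata*, 19355 to 21040 in *T. media* and 14215 to 14898 in *T. mairei*. On TPM as deposited, the replicates of a species were close to each other and the 3 species did not overlap. These sums were not divided by TMM factors, and the order of *T. media* and *T. mairei* depends on that scaling. Called against each species, 38 were higher and 17 lower. With TMM factors on TPM, 89 were higher and 19 lower, and with edgeR on counts 86 and 19. RPS28 (comp21180_c1) was at 345.11, 318.65 and 321.38 TPM in *T. cuspidata*, 86.14 to 93.64 TPM in *T. media* and 23.19 to 24.51 TPM in *T. mairei* (2.80 ± 0.10), but the sum of its 3 unigenes was not called (0.41). RPL21A had 2 unigenes in all. Its comp18871_c0 was at 342.49 to 369.88 TPM in *T. cuspidata*, 97.59 to 115.25 TPM in *T. media* and 15.11 to 21.88 TPM in *T. mairei*. Its comp9465_c0 was at most 0.14 TPM, 118.32 to 123.83 TPM and 94.36 to 117.22 TPM. Their sum was higher in *T. cuspidata* (1.11). Ribosomal proteins have near-identical copies, between which the counting could split reads.

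Of the genes listed under oxidative phosphorylation, 22 of 99 were higher and 4 lower (22.2% and 4.0%, median 0.39). Over all members tested the shares were 14.2% and 8.3%. The summed TPM of this list was 5783 to 5990 in *T. cuspidata*, 4626 to 4916 in *T. media* and 3501 to 3565 in *T. mairei*. PPA (comp6968_c0), an inorganic pyrophosphatase, was at 223.65 to 276.53 TPM in *T. cuspidata* and 39.13 to 101.62 TPM elsewhere. ATPC (comp8438_c0), the gamma subunit of the F-type ATP synthase, was listed at 0 in *T. cuspidata* and at 32.34 to 61.93 TPM elsewhere, while the sum of the 2 unigenes of that name was level (-0.03). Called against each species, 7 were higher and 3 lower, and with TMM factors 13 and 3. The rates against each species among all unigenes tested were 7.06% and 6.25%, so the 7 higher calls were near that rate.

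The 19 unigenes annotated to paclitaxel biosynthesis split into 9 higher, 2 lower and 8 not called, with a median log2 difference of 1.69. These are 47.4% and 10.5%, against 14.2% and 8.30% of all members tested. Called against each species 6 were higher and 2 lower, and with TMM factors 7 and 2. TDC1 (comp26263_c0) carries the GO term of taxadiene synthase, the first committed enzyme, while its KEGG annotation is ent-copalyl diphosphate synthase, a related cyclase. It was at 91.48, 211.64 and 177.3 TPM in *T. cuspidata*, 2.05, 1.1 and 1.71 TPM in *T. media* and 4.35, 31.38 and 1.81 TPM in *T. mairei* (log2 difference 5.07 ± 0.70 SE, adjusted p = 0.00038). The species did not overlap with *T. cuspidata*, but both *T. cuspidata* and *T. mairei* varied widely among their libraries, with replicate 1 the lowest in the first and replicate 2 the highest in the second. The sum over the 8 unigenes named TDC1 was higher as well (5.07).

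TAX10, an acyltransferase name of the pathway, had 2 higher unigenes. comp17263_c0 was at 7.31, 34.55 and 27.85 TPM in *T. cuspidata*, at most 0.21 TPM in *T. media* and 0.7 to 1.89 TPM in *T. mairei* (3.78 ± 0.44). comp6066_c0 was at 6.2, 38.06 and 37.35 TPM, at most 0.45 TPM and 0.81 to 1.81 TPM (3.68 ± 0.53). In both, replicate 1 of *T. cuspidata* was the lowest of its species and still above the other yews. The third, comp26275_c0, overlapped between *T. cuspidata* (26.34 to 95.16 TPM) and *T. mairei* (31.58 to 70.86 TPM). TAT, the acetyltransferase that acts on taxadienol, was not called in either unigene. Its comp28838_c1 was at 105.6, 389.04 and 324.21 TPM in *T. cuspidata*, 45.77 to 68.85 TPM in *T. media* and 68.88 to 132.12 TPM in *T. mairei*, so that replicate 1 fell within the range of *T. mairei*. Its comp14263_c0 was listed at 0 in all *T. cuspidata* and *T. media* libraries and was at 50.78 to 97.99 TPM in *T. mairei*.

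CYP725A1 and CYP725A2 are the names of the 10-beta- and 13-alpha-hydroxylases of taxanes, and both are given to many similar P450 unigenes. Of 8 long CYP725A1 unigenes, 4 were higher and 1 lower. comp24280_c0 was at 44.61, 79.49 and 57.46 TPM in *T. cuspidata*, 3.23 to 4.99 TPM in *T. media* and 6.22 to 17.13 TPM in *T. mairei* (2.98 ± 0.31). comp27610_c0 went the other way, at 0.53, 0.47 and 1.39 TPM against 27.66 to 60.84 TPM and 15.32 to 71.37 TPM (-4.35 ± 0.47). The most abundant, comp28508_c1, was at 192.86, 401.21 and 280.93 TPM in *T. cuspidata* but reached 280.06 TPM in 1 *T. mairei* library and was not called. Of 5 CYP725A2 unigenes, comp27610_c1 and comp26274_c0 were higher and comp30207_c0 was lower. comp26274_c0 was at 177.55 to 281.68 TPM, 75.15 to 152.52 TPM and 2.4 to 7.7 TPM, and comp30207_c0 at 8.72 to 14.38 TPM, 79.6 to 144.4 TPM and 34.31 to 70.28 TPM. Members of the same P450 name thus differed in direction.

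Summed over the 19 unigenes, the paclitaxel list held 831.9, 1900.5 and 1527.1 TPM in *T. cuspidata*, 453.0 to 515.9 TPM in *T. media* and 485.0, 1105.9 and 543.7 TPM in *T. mairei*. *T. cuspidata* lay above *T. media*, but replicate 1 lay below the second *T. mairei* library. That library was the highest of *T. mairei* in 15 of the 19 unigenes.

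**Figure D4:**
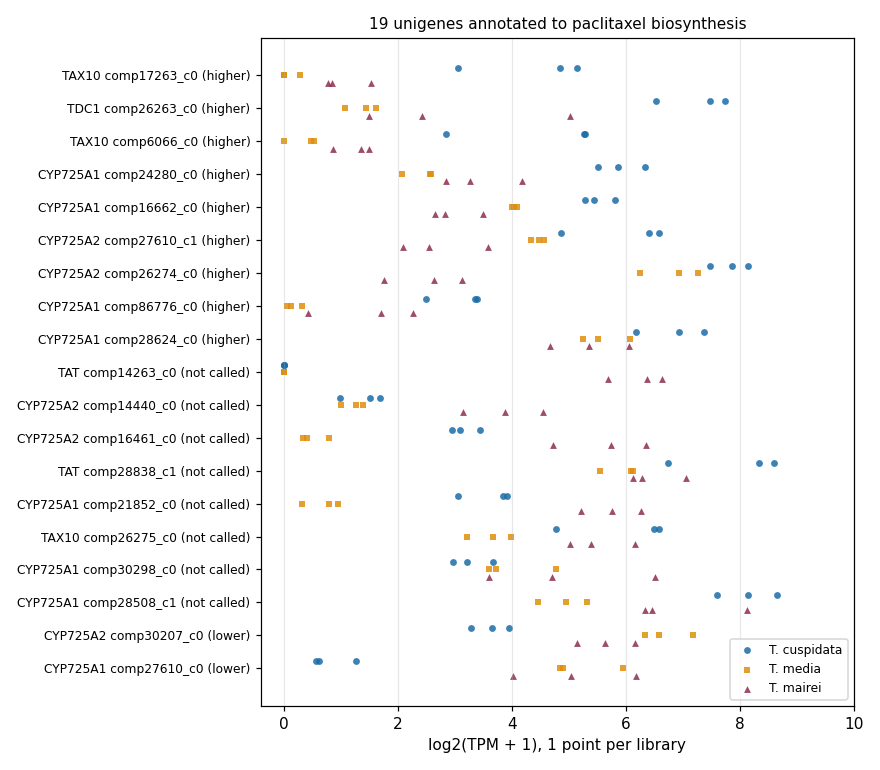
TPM of the 19 unigenes annotated to paclitaxel biosynthesis, on a log2(TPM + 1) axis with 1 point per library, ordered from the widest gap above to the widest gap below. The 9 unigenes at the top have all 3 *T. cuspidata* libraries above the 6 others, the 8 in the middle overlap or reach no call, and the 2 at the bottom have all 3 below.

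Supply of the precursors was less different. Of 31 members of the MEP pathway and prenyl diphosphate synthesis, 2 were higher and 3 lower (6.5% and 9.7%, median 0.20). Over all members tested the shares were 14.2% and 8.3%. Called against each species, 0 were higher and 3 lower. On TPM as deposited, the sum of the list in *T. cuspidata* (1003 to 1246) overlapped with *T. media* (1125 to 1296). It lay narrowly above *T. mairei* (714.8 to 979.4), a separation that depends on the scaling. The higher ones were CHLP (comp17400_c0), a geranylgeranyl reductase that serves chlorophyll and tocopherol synthesis, and GGPS1 (comp22275_c0), annotated as a farnesyl diphosphate synthase, at 21.61 to 30.62 TPM against 5.25 to 19.92 TPM. The ortholog sum was called higher for CHLP (1.72) and not called for GGPS1 (0.11). Against *T. media* alone, the log2 difference of GGPS1 was 0.50 (limma, adjusted p = 0.071). ISPH (comp21767_c0), the last enzyme of the MEP pathway, was at most 0.03 TPM in *T. cuspidata*, 7.78 to 12.09 TPM in *T. media* and 72.82 to 124.0 TPM in *T. mairei*, and the sum of its 3 unigenes was lower too (-1.01). ISPF (comp72885_c0) and IPI1 (comp10487_c0), which act before and after ISPH, were listed at 0 in *T. cuspidata*, but their ortholog sums were not called (-0.81 and -0.06). Among 14 unigenes of diterpenoid and gibberellin synthesis, 3 were higher (21.4%), TDC1 and H6H among them, and with TMM factors 3 were higher and 2 lower. GA2OX7 (comp29190_c1), of the oxidases of gibberellin metabolism, was at 644.66 to 845.27 TPM in *T. cuspidata*, 252.16 to 498.09 TPM in *T. media* and 22.58 to 42.95 TPM in *T. mairei*.

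Steroid, brassinosteroid and carotenoid synthesis had 12 of 46 members higher and 6 lower (median 0.55, and 5 and 4 when called against each species), and 7 of 25 ortholog sums higher against 1 lower. CYP85A1 (comp15042_c0), the oxidase that completes brassinosteroids, was at 73.11, 67.77 and 69.48 TPM in *T. cuspidata*, 7.14 to 9.6 TPM in *T. media* and 5.86 to 7.15 TPM in *T. mairei* (3.09 ± 0.13, adjusted p = 4.2e-07). It is the only unigene of its ortholog. CYP90D1 (comp27873_c0), of the same route, was at 182.37 to 220.39 TPM against 34.91 to 86.03 TPM and 7.58 to 20.48 TPM, and SMT1 (comp20275_c0), a sterol methyltransferase, at 14.96 to 18.92 TPM against 1.76 to 7.06 TPM. The largest lower values were those of SDR2a, annotated as xanthoxin dehydrogenase, a step of abscisic acid synthesis. comp27301_c0 was at 3.76 to 4.79 TPM against 219.84 to 705.01 TPM, comp28159_c0 at 0.21 to 2.87 TPM against 36.37 to 1457.8 TPM, and the sum over 12 unigenes of the ortholog was lower (-3.38).

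Of the phenylpropanoid list, 18 of 98 were higher and 21 lower (18.4% and 21.4%, against 14.2% and 8.30% of all members, median -0.20). Of the flavonoid list, 6 of 59 were higher and 13 lower (10.2% and 22.0%, median -0.28). The 4 higher unigenes of the flavonoid list with the widest gaps were all annotated as flavonol 3-O-methyltransferases. Outside the list, comp28797_c1 with the name FLS was higher too (gap 2.47). It was at 782.91, 1763.24 and 1592.24 TPM in *T. cuspidata* and at most 140.02 TPM elsewhere. Another FLS unigene, comp20633_c1, was lower, and the sum over the name was higher (3.27). Beside OMT2, HOMT3 comp27884_c0 was at 452.79, 840.67 and 769.97 TPM in *T. cuspidata*, 57.3 to 79.22 TPM in *T. media* and 40.31 to 43.68 TPM in *T. mairei*, and HOMT3 comp25979_c0 and BMT (comp27577_c0) were higher too. Among the lower ones, CYP73A14 (comp27906_c0), the cinnamate hydroxylase at the entry of both routes, was at 1.03, 1.58 and 1.08 TPM in *T. cuspidata*, 9.67 to 16.02 TPM in *T. media* and 54.16 to 110.18 TPM in *T. mairei*, and the sum over its ortholog was lower (-1.31). CYP750A1 (comp19347_c0), annotated as a coumarate hydroxylase, was listed at 0 in *T. cuspidata* and at 11.58 to 63.83 TPM elsewhere. The summed TPM of the flavonoid list, 3239 to 4273 in *T. cuspidata*, lay between *T. media* (5922 to 7136) and *T. mairei* (1478 to 1775).

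Of 41 members of the route from linolenic acid to jasmonate, the wound hormone of plants, 2 were higher and 8 lower. These are 4.9% and 19.5% (median -0.39), against 14.2% and 8.3% of all members tested, and 3 of 11 ortholog sums were lower. Called against each species, 2 were higher and 4 lower. As deposited, the summed TPM of the list was 1514 to 1625 in *T. cuspidata*. It lay between *T. media* (2599 to 3072) and *T. mairei* (826.2 to 1074), so the list as a whole was not lower than in both yews. PLA2-II (comp19253_c0), a phospholipase, was at 1.33, 1.2 and 2.31 TPM against 13.61 to 25.64 TPM in *T. media* and 17.55 to 120.28 TPM in *T. mairei*. OPR11 (comp26441_c0), of the 12-oxophytodienoate reductases, was at 10.89 to 13.9 TPM against 23.94 to 67.97 TPM. CYP74A (comp30213_c0), the allene oxide synthase, was at 0.12 to 0.18 TPM against 24.58 to 38.2 TPM and 1.6 to 4.51 TPM, but the sum of its 3 unigenes was level (0.04). The higher unigenes were LOX1.6 (comp21730_c0), a lipoxygenase at 23.19 to 29.86 TPM, 1.93 to 10.24 TPM in *T. media* and listed at 0 in *T. mairei*, and SAMT (comp15196_c0), annotated as a jasmonate methyltransferase, at 3.57, 11.91 and 13.94 TPM against at most 0.27 TPM.

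Transcription factors with WRKY, MYB, NAC, bHLH and ERF names were lower more often than members at large. Of 168 tested, 15 were higher and 49 lower (8.9% and 29.2%, against 14.2% and 8.3% of all members tested). The median was -0.74, and with TMM factors 12 were higher and 57 lower. WRKY59 (comp2879_c0) was listed at 0 in *T. cuspidata*, at 4.97 to 17.61 TPM in *T. media* and 47.23 to 213.53 TPM in *T. mairei*. MYB21 (comp29469_c0) was at 0.15, 0.32 and 0.08 TPM, 40.18 to 51.36 TPM and 19.29 to 20.7 TPM (-4.72 ± 0.13, adjusted p = 5.4e-08), and no other unigene has its name. ERF014 (comp27307_c0) was at 2.82 to 4.34 TPM, 20.69 to 22.85 TPM and 41.4 to 177.82 TPM. The summed TPM of the list, 2401 to 2961 in *T. cuspidata*, overlapped with *T. media* (2823 to 3127) and lay below *T. mairei* (6197 to 6694). On the higher side were ERF024 and ERF094, above, BHLH35 (comp150771_c0) at 4.01 to 8.0 TPM against at most 0.59 TPM, and MYB28 (comp28591_c0) at 157.25 to 383.92 TPM against 38.36 to 54.03 TPM.

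Names of receptor kinases had 14 of 160 higher and 25 lower (8.8% and 15.6%, median 0.16). Those of defense genes had 6 of 46 higher and 8 lower (median -0.60), and the lower calls are 17.4% of that list. All members tested had shares of 14.2% higher and 8.3% lower, so the higher share of the defense names was close to that of all members. The receptor kinase list was the only one of the 29 whose summed TPM lay below both other yews in every library, with 4183 to 4345 in *T. cuspidata*, 4746 to 5366 in *T. media* and 7500 to 10859 in *T. mairei*. Its most abundant lower unigene among those named by the rule was PERK2 comp27280_c0, at 0.3 to 0.72 TPM, 5.57 to 17.16 TPM and 1715.36 to 4041.68 TPM, which is annotated as a DNA methyltransferase, so the name may not hold. Of the defense names, NPR1 (comp25426_c2), the receptor of salicylic acid in Arabidopsis, was at 0.07 to 0.34 TPM against 3.27 to 3.81 TPM and 9.93 to 12.32 TPM, and CHI2 (comp47888_c0), a chitinase, was listed at 0 against 1.71 to 7.47 TPM and 46.71 to 197.4 TPM. RPS4 and RPP1A of that list are annotated as ribosomal proteins and account for 2 of its 6 higher calls. In the pathway of plant-pathogen interaction 6 of 46 were higher and 7 lower, and 1 and 1 when called against each species. Its higher share was also close to the 14.2% of all members tested, and its lower share was 15.2%, against 8.3%.

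Heat shock names had 5 of 63 higher and 8 lower (7.9% and 12.7%, median -0.84), and 3 and 13 with TMM factors. Over all members tested the shares were 14.2% and 8.3%. HSP18.1 (comp1670_c0), a small heat shock protein, was at 0, 0.54 and 0.07 TPM in *T. cuspidata*, 4.58 to 15.17 TPM in *T. media* and 62.98, 82.04 and 402.34 TPM in *T. mairei*. HSP18.9 (comp27848_c0) was at 303.5 to 325.29 TPM against 61.93 to 128.75 TPM. The summed TPM of the list was 2919 to 3132 in *T. cuspidata*, 2462 to 2519 in *T. media*, and the *T. mairei* libraries held 4156, 4272 and 8878, where replicate 3 stood far above the other 2. In contrast, names of dehydrins, galactinol synthases and other cold or drought genes had 6 of 13 higher (46.2%). GOLS1 (comp27164_c0), which makes galactinol, was at 139.87, 178.16 and 197.83 TPM against 9.29 to 10.89 TPM and 8.64 to 29.32 TPM (3.75 ± 0.35), and COR413IM2 (comp24927_c0), a cold-regulated chloroplast membrane protein, at 302.6 to 362.42 TPM against 29.28 to 82.84 TPM. Their summed TPM was nevertheless highest in *T. mairei* (4427 to 5705, against 2480 to 2898 in *T. cuspidata*).

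Among the redox enzymes of the glutathione list, 12 of 53 were higher and 7 lower (22.6% and 13.2%, median 0.20). Over all members tested the shares were 14.2% and 8.3%. APX8 (comp28987_c0), an ascorbate peroxidase, was at 159.43 to 182.39 TPM in *T. cuspidata* against 38.79 to 40.02 TPM and 19.47 to 26.07 TPM, while APX4 (comp27844_c1) was listed at 0 against 65.56 to 87.53 TPM. The sum over the ortholog of both was higher (1.07). CICDH (comp9384_c0), an isocitrate dehydrogenase, was at most 0.33 TPM against 29.84 to 158.79 TPM, with a lower ortholog sum (-1.31). The 18 peroxidase names had 3 higher and 5 lower unigenes (16.7% and 27.8%, median -0.78). Their summed TPM as deposited, 1014 to 1282 in *T. cuspidata*, nevertheless lay above *T. media* (312.8 to 359.4) and *T. mairei* (340.5 to 741.4). PER42 alone held 766.34, 1109.02 and 1025.5 TPM of the *T. cuspidata* sums.

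Of the cytochrome P450 names 26 of 117 were higher and 19 lower (22.2% and 16.2%, median -0.18). Over all members tested the shares were 14.2% and 8.3%. The P450 counts turned to 19 and 23 with TMM factors and to 13 and 17 when called against each species. CYP86A2 (comp17378_c0), a fatty acid hydroxylase of the cutin route in Arabidopsis, was at 32.94 to 33.16 TPM against 5.67 to 8.03 TPM and 0.69 to 1.5 TPM, and CYP89A2 (comp15143_c0) at 0.23 to 6.1 TPM against 29.65 to 40.8 TPM and 42.99 to 100.2 TPM. Glycosyltransferase names had 13 of 60 higher and 6 lower (median 0.17), led by UGT73C3 (comp28677_c0) at 7.72 to 25.53 TPM against at most 0.92 TPM. ABC transporter names had 11 of 78 higher and 3 lower (14.1% and 3.8%, median 0.18), and 9 and 7 with TMM factors. Their share of higher calls was close to that of all members.

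Cell wall enzyme names had 5 of 75 higher and 12 lower (6.7% and 16.0%, median 0.25). Over all members tested the shares were 14.2% and 8.3%. PME61 (comp27914_c0), a pectin methylesterase, was at 3.05 to 5.03 TPM against 15.56 to 38.79 TPM, and the summed TPM of the list was 2195 to 2340 in *T. cuspidata*, 4410 to 4658 in *T. media* and 1502 to 1698 in *T. mairei*. Starch, sucrose and galactose metabolism had 18 of 169 higher and 23 lower (10.7% and 13.6%, median 0.01), and 12 and 27 with TMM factors. CWINV1 (comp28580_c1), a cell wall invertase that splits sucrose, was at 111.53 to 160.55 TPM in *T. cuspidata*, 4.77 to 6.15 TPM in *T. media* and 24.82 to 31.31 TPM in *T. mairei*.

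The circadian list had 6 of 49 higher and 3 lower (12.2% and 6.1%, median 0.22), and 5 and 8 with TMM factors. Over all members tested the shares were 14.2% and 8.3%. PRR73 (comp30006_c2), a clock regulator, was at 78.17 to 83.13 TPM against 11.65 to 16.42 TPM and 24.81 to 36.68 TPM, and GI (comp25422_c0), the only GIGANTEA unigene, was at 2.04 to 3.17 TPM against 5.64 to 6.4 TPM and 18.8 to 23.18 TPM. The hour of harvest is not given in the sources used here. The ubiquitin list had 9 of 118 higher and 3 lower (7.6% and 2.5%, median 0.13), and 6 and 5 with TMM factors. Its largest lower value was that of UBC10 (comp21188_c0), a ubiquitin-conjugating enzyme at 8.06, 11.52 and 15.24 TPM against 442.23 to 768.88 TPM, for which the ortholog sum was not called (-0.41).

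**Figure D5:**
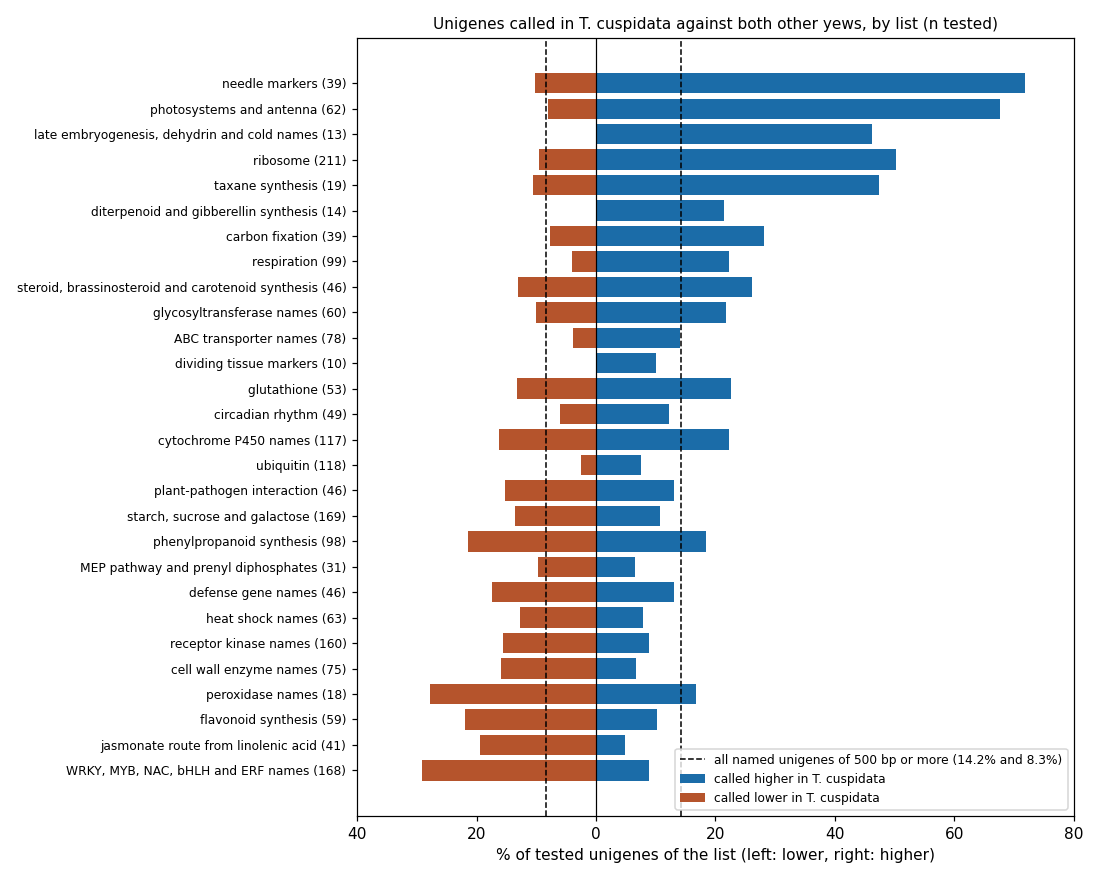
Share of the tested members of each list with at least 10 unigenes that were called higher (right) or lower (left) in *T. cuspidata*, with dashed lines at the shares among all members tested (14.2% and 8.3%). Needle markers and photosystems lie farthest to the right, and the transcription factor names have the largest share of lower calls.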

How the data were processed

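Twig RNA of *T. cuspidata*, *T. media* and *T. mairei* was sequenced by the authors, 3 libraries each, and reads of all species were co-assembled into unigenes. The authors deposited, per library, expected counts (estimated, not normalized) and TPM (scaled for length and library size) for 8 libraries. For *T. mairei* replicate 3 they deposited TPM with RPKM, and RPKM was not used. The counting tool is not given in the sources used here, and TPM sum to the same total whatever share of reads mapped.

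TPM of all unigenes with at least 1 TPM in at least 3 libraries were analysed as log2(TPM + 1) with limma 3.58.1 in R 4.3.3, with 1 mean per species and Benjamini-Hochberg adjustment over all 33039 unigenes. On this scale, differences of unigenes with low TPM are understated. Alternatives used edgeR 4.0.16 and DESeq2 1.42.0 on rounded counts of 8 libraries, where *T. mairei* had 2. The test was checked on simulated data. Unigenes named are the 15 with the widest gap per direction, up to 4 per direction in each of 29 lists (KEGG pathways, GO terms, name patterns) and all of the paclitaxel list. Unigenes of 9 name pairs, PSBP and the FLS unigenes were added, picked after their values were seen. The members and lists were chosen with earlier results of these data known, name patterns that caught other genes were corrected after values were seen, and 3 further lists with at most 2 members were dropped. Sums per KEGG ortholog were added after seeing the data. Sequences were not used here.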

Additional observations from a re-analysis of the deposited data

How the results depend on the processing

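The counts of 1356 higher and 794 lower members stayed within 1.5 times under another pseudocount, other filters, TMM factors, edgeR and DESeq2. Leaving out 1 library gave 1365 to 1517 higher and 797 to 918 lower. The rule of no overlap is easier to meet with 1 library fewer, so these larger counts do not measure stability. With 1 mean for both other yews, whose spread then includes the difference between those species, 704 were higher and 488 lower. Called against each species separately, 585 were higher and 507 lower. Counts fell by construction where fewer features enter: at 1000 bp or more 471 were lower, summed over 6362 gene names 809 and 428 were called, and summed over the 1834 KEGG orthologs with a tested member, an alternative chosen after seeing the data, 261 and 73. No named unigene changed direction. Of 203 named unigenes that were called, 144 were called under all unigene-level settings other than the stricter TPM and length limits.

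The replicate numbers did not pair the libraries: deviations of same-numbered libraries correlated at -0.062 to 0.045. With the replicate number as a block, 1355 were higher and 794 lower.

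With 3 libraries per species, 1 library of *T. mairei* without counts and TPM as the main unit, read depth per unigene does not enter the test, and a unigene listed at 0 is not shown to be absent. Unigenes of a co-assembly can be separate genes, alleles or parts of a gene, which these files do not tell apart.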
